A study of Mus musculus with 8 samples.

Results

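Cell cycle, replication and Cdk inhibitor genes were examined in skeletal stem and progenitor cells sorted from mouse fracture callus. The members were a fixed list of 50 genes in 4 classes, namely G1/S cyclins, Cdks, pocket proteins and E2Fs, replication genes, G2/M genes and Cdk inhibitors. Every probe set annotated with exactly 1 of these symbols was taken. This gave 113 probe sets for 49 of the 50 genes, out of 34945 probe sets for 18193 genes with a probe set of their own. Ccnb1, the gene of a mitotic cyclin, was not analysed here because no probe set is annotated with it alone. The genes were listed for their known roles, and the rule that picks their probe sets uses no measured value.

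The cells came from bicortical femoral fractures, stabilised with an intramedullary pin, in male C57/Bl6 mice of 10 to 12 weeks. SSCs, the skeletal stem cells, were sorted as CD51+ and CD200+ cells that lacked CD45, Ter119, Tie2, 6C3, Thy1 and CD105. BCSPs, the bone, cartilage and stroma progenitors downstream of them, were CD51+ and CD105+ and lacked the other markers, and CD200 was not part of their gate. Each of 4 experiments gave 1 SSC and 1 BCSP array, so there were 4 arrays per population, made from 10000 cells per population and experiment sorted straight into Trizol without culture. The labels give day 7 after fracture, while the study's methods name a later day for the callus. All mice were fractured, and no unfractured or treated group was compared.

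The value of each probe set is an activity score that sets the array against that probe set's own range in a large public collection of arrays. It runs from about -100, inactive, to about +100, active, and 0 is the threshold of that probe set. Differences are therefore given in points, with no fold changes, and a higher score of 1 gene than of another does not mean more transcript. A probe set is called active on an array where its score was above 0. In a population of cells, fewer cycling cells and less RNA per cycling cell cannot be told apart. The labels number the experiments and not the mice, while the study describes the calluses as those of different mice.

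D-type cyclins with Cdk4 and Cdk6, and E-type cyclins with Cdk2, drive cells from G1 into S phase by phosphorylating the pocket proteins Rb1, Rbl1 and Rbl2, which releases E2F factors. E2Fs then switch on genes for origin licensing and nucleotide supply. A later wave of genes for mitosis peaks in G2 and M, and the inhibitors of the Cip/Kip and Ink4 families hold Cdks in check. In healing callus, skeletal progenitors are known to proliferate before they form cartilage and bone.

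The promoters of these classes differed in the letters they hold, and the 150 bases before the annotated start are shown for the highest-scoring G2/M and replication genes with a single RefSeq promoter window (GRCm38.p6). Capitals mark CCAAT, the box bound by NF-Y, the CHR of late cell cycle genes, spelled TTTGAA in its common form and also searched as TTCGAA in this work, and cores bound by E2F. The E2F core was searched as TTCCCGC in its first spelling, as TTGGCGC in the second and finally as TTCGCGC in the last. Both strands were searched, so a match on the other strand is printed as the reverse complement, such as ATTGG for the NF-Y box. The first 4 sequences belong to G2/M genes and the last 2 to replication genes.
Cdc20, chr4:118437344-118437493, minus strand: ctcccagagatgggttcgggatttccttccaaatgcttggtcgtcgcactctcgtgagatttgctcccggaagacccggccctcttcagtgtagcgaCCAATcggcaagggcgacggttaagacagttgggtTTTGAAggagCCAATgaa
Ccnb2, chr9:70421555-70421704, minus strand: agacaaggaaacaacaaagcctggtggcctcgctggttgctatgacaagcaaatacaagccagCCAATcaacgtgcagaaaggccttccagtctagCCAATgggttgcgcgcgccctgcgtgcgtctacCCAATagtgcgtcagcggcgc
Cdk1, chr10:69352913-69353062, minus strand: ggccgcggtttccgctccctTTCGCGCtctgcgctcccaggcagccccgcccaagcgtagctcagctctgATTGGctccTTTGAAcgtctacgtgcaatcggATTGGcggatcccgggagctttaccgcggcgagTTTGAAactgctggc
Top2a, chr11:99024190-99024339, minus strand: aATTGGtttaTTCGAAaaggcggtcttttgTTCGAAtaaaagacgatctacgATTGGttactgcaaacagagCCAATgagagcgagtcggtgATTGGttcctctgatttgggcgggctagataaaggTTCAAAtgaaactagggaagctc
Mcm6, chr1:128359706-128359855, minus strand: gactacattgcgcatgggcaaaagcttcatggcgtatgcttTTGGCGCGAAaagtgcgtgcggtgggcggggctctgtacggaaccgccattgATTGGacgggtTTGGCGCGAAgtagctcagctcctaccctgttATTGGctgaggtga
Rrm2, chr12:24708104-24708253, plus strand: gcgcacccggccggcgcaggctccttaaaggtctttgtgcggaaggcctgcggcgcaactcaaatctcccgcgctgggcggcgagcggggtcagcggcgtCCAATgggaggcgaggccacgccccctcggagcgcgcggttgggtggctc

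Cdc20 activates the anaphase-promoting complex, Ccnb2 and Cdk1 are a mitotic cyclin and its kinase, and Top2a untangles DNA. Over these 150 bases Top2a held 4 CCAAT and 3 CHR matches, and Cdk1 held 2 of each and 1 E2F core. Ccnb2 had 3 CCAAT matches and its CHR matches lay outside the stretch shown. Mcm6, a subunit of the replicative helicase, had 4 E2F matches, which came from the second and last spellings overlapping on opposite strands at each of its longer capital runs. Rrm2, the small subunit of ribonucleotide reductase, had 1 CCAAT and no E2F core in the stretch.

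Over the full windows, from 250 bases before to 50 after the start, 39 of the 50 genes could be searched. CCAAT was found in 12 of 13 G2/M genes (92.3%) and in 8 of 11 replication genes (72.7%), against 41.1% of 27025 genes. The CHR was found in 11 of 13 G2/M genes (84.6%) and in 2 of 11 replication genes (18.2%), against 21.7% of all genes. E2F cores went the other way, in 3 of 13 G2/M genes (23.1%) and 7 of 11 replication genes (63.6%), against 9.2%. Both CCAAT and CHR stood in 11 of 13 G2/M genes and in 9.65% of all genes. The 13 include Ccnb1, which is not among the 11. Among G1/S genes CCAAT, CHR and E2F cores were found in 4, 3 and 4 of 10, and among Cdk inhibitors in 3, 1 and 2 of 5. A match describes these letters and is not a bound site.

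**Figure D1:**
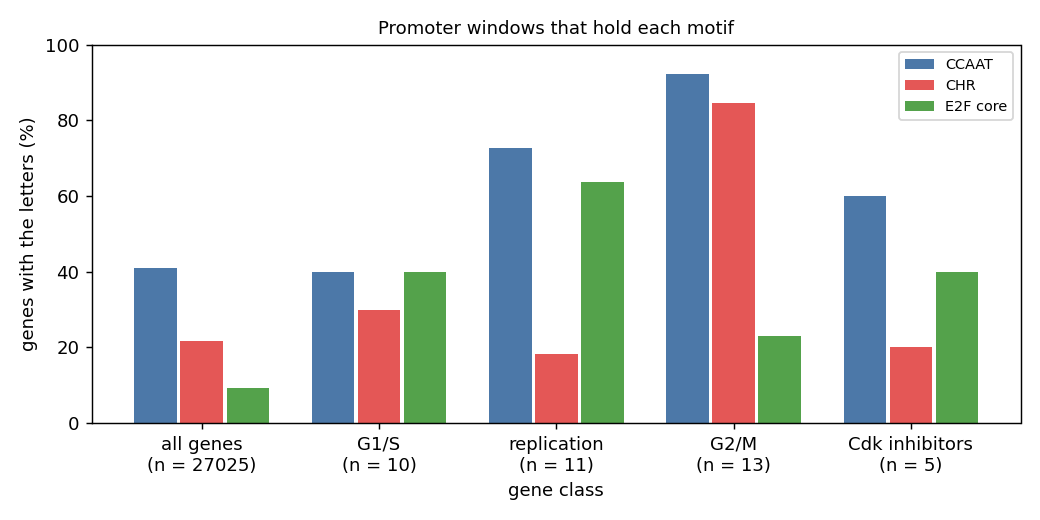
Percent of genes whose RefSeq promoter window holds CCAAT, CHR or E2F core letters on either strand, for all genes and for each class, with the number of genes searched. CHR letters stood in 84.6% of G2/M genes and 18.2% of replication genes, and E2F cores in 23.1% and 63.6%.

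Of the 113 member probe sets, 26 (23.0%) were active on all 8 arrays, against 16.1% of all 45037 probe sets. A further 48 (42.5%) were active on none of the 8 arrays, against 49.5% of all probe sets. By the highest probe set of each gene, 20 of 49 genes were active on all 8 arrays, 7 on none and 22 on some. By the same rule the share of all 18193 genes was 25.0% active throughout and 43.5% never active. G2/M genes were active on all 8 arrays in 9 of 15 cases, G1/S genes in 5 of 15, replication genes in 3 of 13 and Cdk inhibitors in 3 of 6. Median gene scores were 14.1 in SSCs and 15.8 in BCSPs for G2/M genes and -3.34 and -2.65 for replication genes. They were 2.10 and -2.52 for G1/S genes and 31.2 and 30.8 for Cdk inhibitors. Over all probe sets of the genes the medians were again 31.2 and 30.8 for Cdk inhibitors. This added only another probe set of Cdkn1a, with a mean of 79.9, and another of Cdkn1b, with -69.6. The Cdk inhibitor median thus lay between Cdkn2b and Cdkn2c either way and could not move. The other classes had far lower medians this way, at 0.439 and 2.86 for G2/M, -19.2 and -23.7 for replication and -24.3 and -22.2 for G1/S. Without the SSC array of experiment 3 the G1/S gene median in SSCs was 12.4. Because each gene is scored on its own range, these medians describe where the middle of a class lay against its genes' own thresholds. They do not show which class was more abundant.

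**Figure D2:**
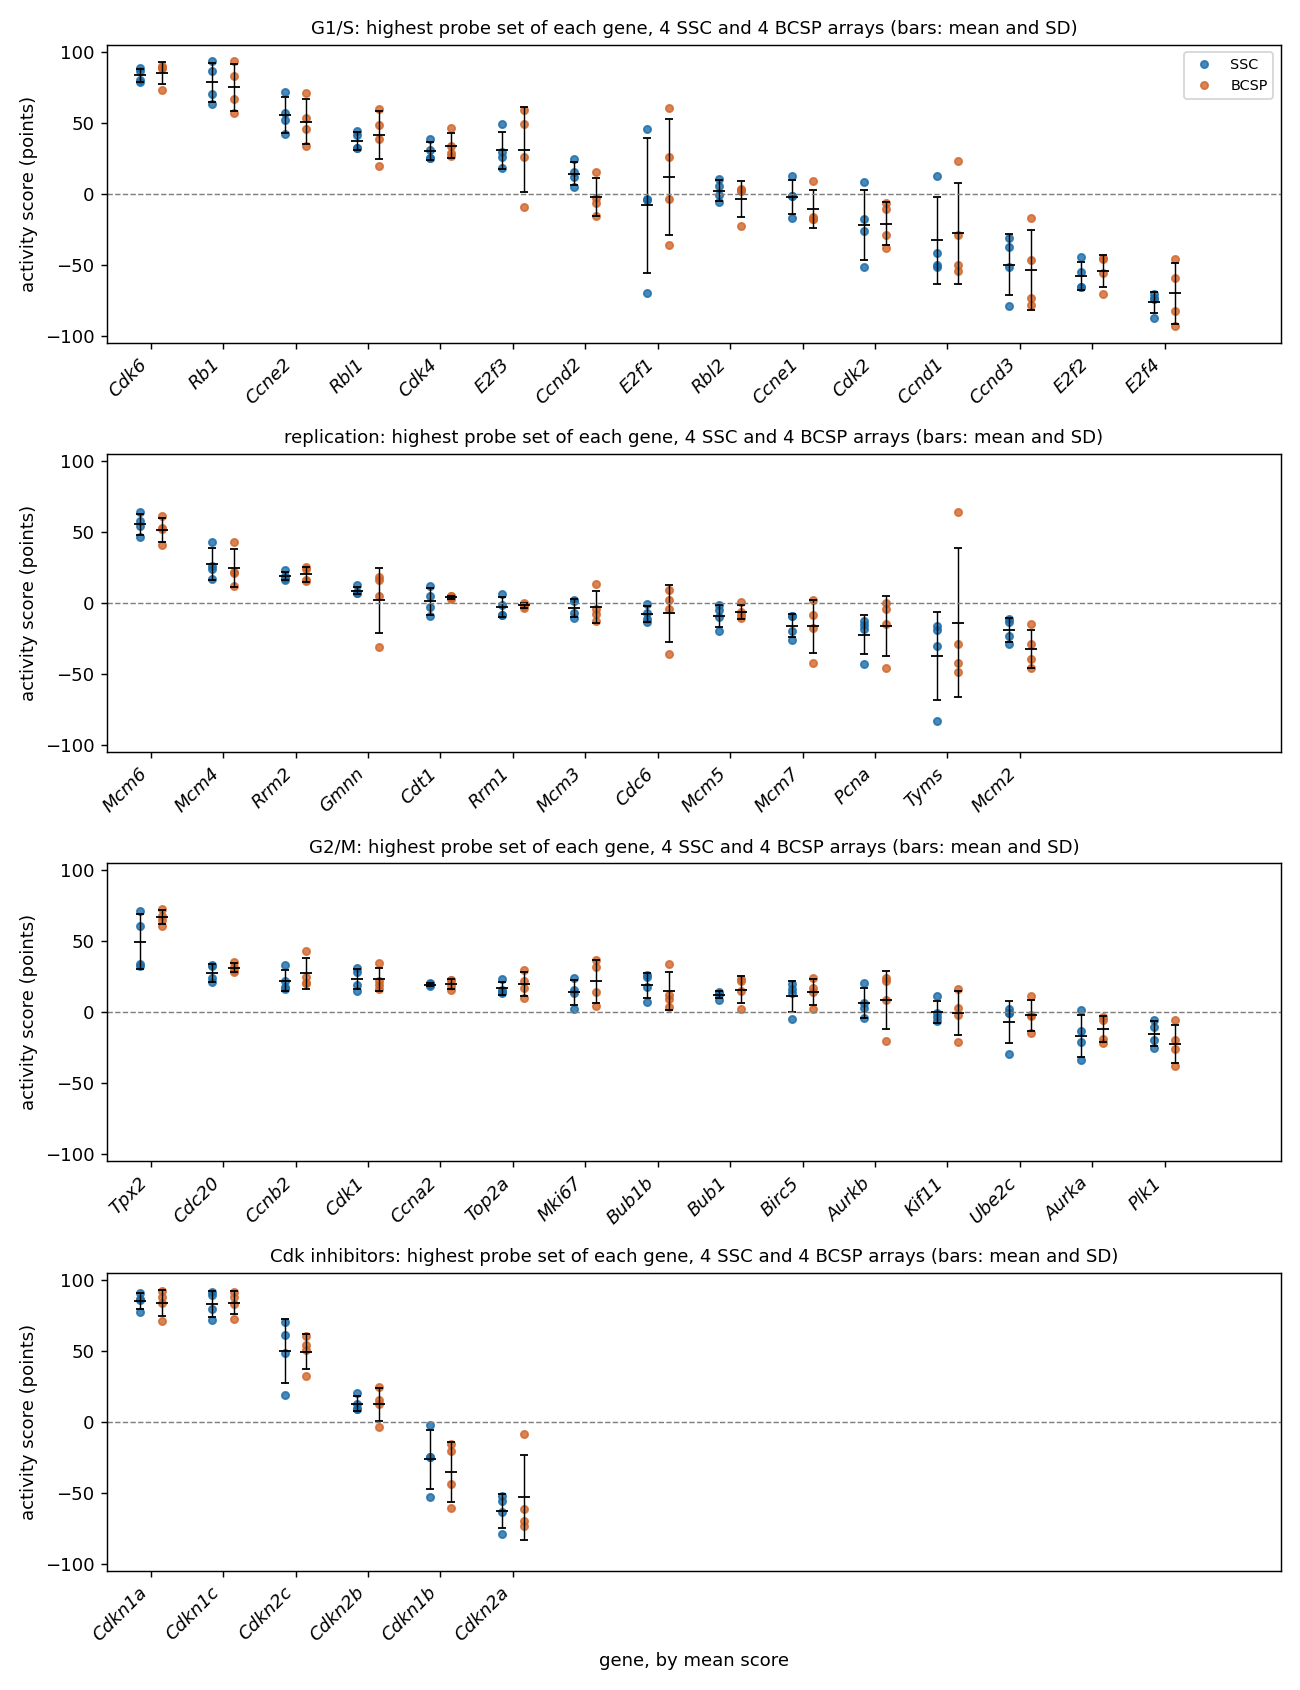
Activity score in points of the highest probe set of each of 49 genes by class, with 1 dot per array, a bar for the mean and SD of 4 SSC and of 4 BCSP arrays, and a dashed line at 0. The G2/M genes from Tpx2 to Bub1 lie above 0 on all 8 arrays, while the replication genes divide between Mcm6, Mcm4 and Rrm2 above 0 and the others around or under it.

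Among G1/S genes, Cdk6, Rb1 and Ccne2 had the highest scores, and Rbl1 and Cdk4 were also active on all 8 arrays. For Cdk6, a partner of the D cyclins, scores in the order of experiments 1 to 4 were 86.7, 78.6, 88.2 and 79.7 on the SSC arrays and 88.2, 88.7, 89.6 and 73.4 on the BCSP arrays. Rb1, the founding pocket protein, scored 70.02, 63.5, 86.3 and 93.6 on the SSC arrays and 66.5, 56.7, 82.98 and 93.7 on the BCSP arrays. Ccne2, an E-type cyclin, scored 41.7, 51.9, 71.8 and 56.7 on the SSC arrays and 33.3, 45.2, 71.1 and 53.6 on the BCSP arrays. All 24 of these values were above 0, and SSC and BCSP ranges overlapped for each gene.

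At the low end of the class stood Ccnd3, a D cyclin, with -49.97 ± 21.5 in SSCs and -54.01 ± 28.2 in BCSPs (SD, n = 4 each). E2f2, an activating E2F, had -57.9 ± 9.98 in SSCs and -54.5 ± 11.6 in BCSPs (SD, n = 4 each), and E2f4, which acts mainly in repression, -76.7 ± 7.47 in SSCs and -70.3 ± 21.4 in BCSPs (SD, n = 4 each). These 3 genes were above 0 on none of the 8 arrays with any probe set. The other D cyclins, chosen for description after their values were seen, were also low or mixed. Ccnd1 by 1417419_at scored 12.1, -50.6, -51.7 and -41.9 on the SSC arrays and 22.8, -54.5, -29.2 and -50.6 on the BCSP arrays, so that both arrays of experiment 1 were above 0 and the other 6 were below. Of its other probe sets 1417420_at was above 0 on 1 array, the BCSP array of experiment 1 at 9.30, and 1448698_at on none. Ccnd2 had 7 probe sets, of which 1 was above 0 on 5 arrays and 6 were above 0 on none. The D-cyclin partners Cdk6 and Cdk4 were thus active on all 8 arrays by their highest probe sets, while no D cyclin was. Not every probe set of the partners was, as Cdk6 by 1460291_at was above 0 on none and Cdk4 by 1422440_at on 6.

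In the replication class Mcm6, Mcm4 and Rrm2 had the highest scores and were active on all 8 arrays by that probe set. Mcm6 scored 46.2, 53.9, 63.96 and 58.03 on the SSC arrays and 40.5, 52.6, 61.4 and 51.9 on the BCSP arrays. Mcm4, another helicase subunit, scored 26.1, 23.7, 43.2 and 16.9 on the SSC arrays and 11.7, 21.7, 43.3 and 21.1 on the BCSP arrays. Rrm2 scored 17.7, 16.2, 22.9 and 19.1 on the SSC arrays and 15.8, 15.9, 23.7 and 25.7 on the BCSP arrays. Rrm2 had the smallest spread of the 3, between 15.8 and 25.7 over the 8 arrays.

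Pcna, the sliding clamp of DNA polymerase, Tyms, which makes thymidylate, and Mcm2 had the lowest scores of the class. Pcna scored -12.7, -15.4, -42.8 and -18.1 on the SSC arrays and -14.5, 0.140, -46.1 and -4.38 on the BCSP arrays. Tyms scored -19.1, -16.5, -30.1 and -83.2 on the SSC arrays and 63.9, -28.6, -48.8 and -42.5 on the BCSP arrays, and its single value above 0 was the BCSP array of experiment 1. Mcm2 scored -11.3, -13.2, -29.1 and -23.4 on the SSC arrays and -45.5, -14.9, -28.7 and -39.7 on the BCSP arrays, below 0 on every array. The other 7 genes, Gmnn, Cdt1, Rrm1, Mcm3, Cdc6, Mcm5 and Mcm7, had mean scores from -16.3 for Mcm7 to 5.29 for Gmnn, and each was above 0 on 1 to 7 arrays. Subunits of the same MCM2-7 helicase therefore ranged from Mcm6, active on all 8 arrays, to Mcm2, active on none.

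Among G2/M genes Tpx2, a spindle assembly factor, Cdc20 and Ccnb2 scored highest. Tpx2 scored 34.2, 71.5, 60.9 and 32.8 on the SSC arrays and 68.2, 65.4, 61.2 and 73.03 on the BCSP arrays. Cdc20 scored 33.2, 23.99, 21.3 and 32.9 on the SSC arrays and 32.1, 28.4, 29.6 and 35.6 on the BCSP arrays. Ccnb2 scored 22.2, 33.1, 16.8 and 17.6 on the SSC arrays and 20.9, 43.1, 24.9 and 20.8 on the BCSP arrays. All were above 0, with overlapping populations, and the BCSP values of Tpx2 spread less (SD 4.96) than its SSC values (SD 19.4).

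Of the other G2/M genes active on all 8 arrays, Ccna2, the cyclin of S phase and G2, varied least, with 18.5, 19.7, 19.9 and 20.4 on the SSC arrays and 15.98, 22.6, 18.7 and 22.8 on the BCSP arrays. Top2a scored 16.9 ± 4.30 in SSCs and 19.8 ± 8.44 in BCSPs (SD, n = 4 each). Bub1, a spindle checkpoint kinase, scored 12.4 ± 2.41 in SSCs and 15.8 ± 9.52 in BCSPs (SD, n = 4 each). The related checkpoint protein Bub1b scored 19.1 ± 8.81 in SSCs and 14.9 ± 13.3 in BCSPs (SD, n = 4 each), and in these 3 genes the populations overlapped. Cdk1 ran from 15.3 to 34.98 and Mki67, the gene of the Ki-67 antigen, from 2.59 to 36.7 over the 8 arrays.

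The lowest G2/M scores were those of Ube2c, the ubiquitin-conjugating enzyme of the anaphase-promoting complex, Aurka and Plk1. Ube2c scored 2.43, -0.340, -29.2 and -0.190 on the SSC arrays and -2.69, 11.4, -14.9 and -2.08 on the BCSP arrays. Aurka, a spindle pole kinase, scored -21.2, -13.4, -33.6 and 1.37 on the SSC arrays and -18.5, -3.41, -21.3 and -5.03 on the BCSP arrays. Plk1, a kinase of mitotic entry, scored -19.4, -10.4, -25.1 and -5.70 on the SSC arrays and -19.4, -5.42, -25.9 and -38.1 on the BCSP arrays. These values were above 0 on 2 arrays for Ube2c, 1 for Aurka and none for Plk1. Both kinases were thus under their thresholds on most arrays while the genes of the cyclins Ccna2 and Ccnb2 were above theirs on all 8. Birc5, Aurkb and Kif11 lay between, above 0 on 7, 6 and 3 arrays.

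The Cdk inhibitors divided into active and inactive genes in both populations. Cdkn1a, encoding p21, scored 86.5, 85.6, 77.5 and 90.6 on the SSC arrays and 87.9, 83.8, 70.7 and 91.97 on the BCSP arrays. Cdkn1c, encoding p57, scored 89.4, 79.1, 72.05 and 91.7 on the SSC arrays and 91.4, 83.3, 72.6 and 87.9 on the BCSP arrays. Cdkn2c, encoding the Ink4 protein p18, scored 70.3, 61.1, 18.8 and 48.6 on the SSC arrays and 60.5, 54.4, 32.4 and 50.7 on the BCSP arrays. These 3 genes were active on all 8 arrays, and the arrays of experiment 3 held the lowest value of each in both populations.

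Cdkn2b, encoding p15, was closer to its threshold, with 20.1, 12.6, 9.14 and 9.20 on the SSC arrays and 24.5, -3.93, 15.5 and 12.6 on the BCSP arrays. It was above 0 on 7 arrays, all except the BCSP array of experiment 2. Cdkn1b, encoding p27, scored -2.54, -53.3, -24.7 and -24.6 on the SSC arrays and -44.05, -20.3, -16.01 and -60.8 on the BCSP arrays with its higher probe set. Cdkn2a, whose products are p16 and p19Arf, scored -52.6, -56.1, -79.4 and -63.8 on the SSC arrays and -8.70, -61.8, -69.8 and -73.1 on the BCSP arrays. Neither Cdkn1b nor Cdkn2a was above 0 on any array. Of the Cip/Kip genes Cdkn1a and Cdkn1c were thus active throughout and Cdkn1b was not, and of the Ink4 genes Cdkn2c was active throughout and Cdkn2a was not. The single Cdkn2a probe set is annotated with the gene alone, so the score is not assigned to either product.

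To ask whether SSCs and BCSPs differed, the populations were compared with limma over all probe sets. After Benjamini-Hochberg adjustment 0 of 113 member probe sets passed 0.05, as did 0.0% of all probe sets, and every member had an adjusted p of 1. At an unadjusted limma p under 0.05 the count was 0 of 113 members, against 2.4% of all probe sets. The populations were separate without overlap for 0 of 113 members, against 1.43% of all probe sets. With the experiment as a block, 2 of 113 members had an unadjusted limma p under 0.05, against 5.04% of all probe sets. They were Rb1 by probe set 1444400_at and Bub1b by 1447362_at, both with an adjusted p of 0.933.

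The intervals, which are not adjusted for the number of probe sets, show how much could have been missed. Their half-width ran from 8.10 to 76.8 points with a median of 27.6, and the whole interval lay within 20 points of 0 for 6 of the 113 probe sets. It lay within 10 points for 1, Cdk6 by 1435338_at, whose difference was 0.010 points (95% interval -8.09 to 8.11). With the experiment as a block the median half-width was 24.1 points, and 16 intervals lay within 20 points and 6 within 10, those of Cdkn1a and Cdk6 by 2 probe sets each, Cdkn1c, and Rb1 by 1417850_at. The blocked intervals were -3.80 to 6.72 and -3.71 to 9.56 for Cdkn1a, -5.80 to 4.37 for Cdkn1c and -2.22 to 8.95 for Rb1. Without the block, the difference for Cdkn1a was 1.46 points (95% interval -9.62 to 12.5), for Cdkn1c -0.715 points (95% interval -13.1 to 11.6) and for Mcm6 3.95 points (95% interval -11.7 to 19.6). For Ccna2 it was -0.400 points (95% interval -22.3 to 21.5) and for Cdc20 -3.60 points (95% interval -23.5 to 16.3). The widest intervals among the highest probe sets were those of E2f1, the activating E2F, at -19.8 points (95% interval -81.7 to 42.2), and Tyms, at -23.2 points (95% interval -83.2 to 36.8).

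**Figure D3:**
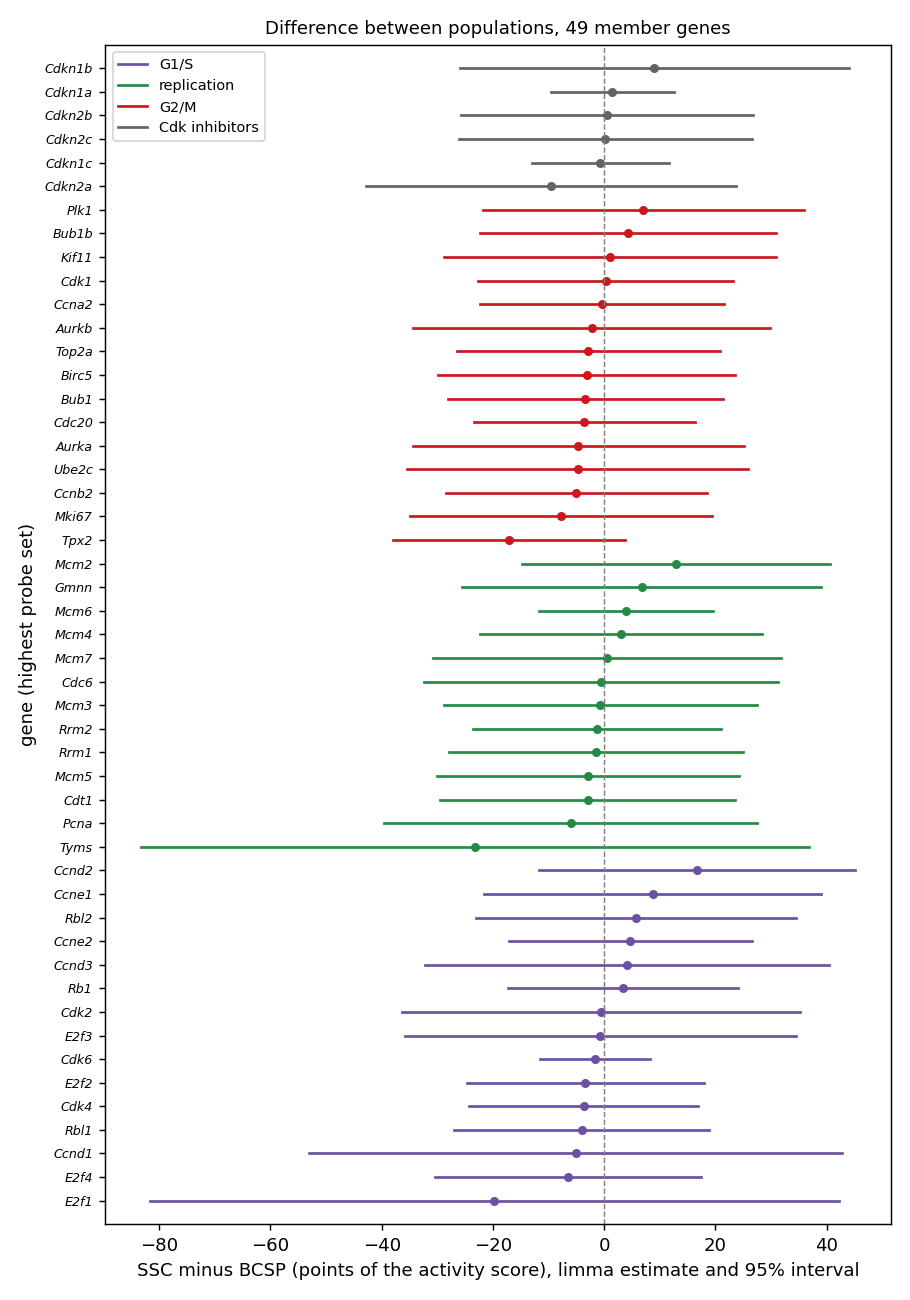
SSC minus BCSP difference in points with its 95% interval from limma, for the highest probe set of each of 49 genes, coloured by class. Every interval includes 0, and those of Cdk6, Cdkn1a and Cdkn1c are among the narrowest.

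The 5 member probe sets with the smallest p were examined one by one. Rb1 by 1444400_at scored -81.5, -7.47, -19.2 and -11.4 on the SSC arrays and -32.7, 59.7, 88.2 and -5.76 on the BCSP arrays, a difference of -57.3 points (95% interval -122.02 to 7.49). Cdt1, a licensing factor, scored -4.83, -8.53, -19.5 and -7.13 on the SSC arrays and -35.3, -13.7, -40.6 and -36.04 on the BCSP arrays by 1455791_at, a difference of 21.4 points (95% interval -6.11 to 48.9). Bub1b by 1447362_at scored 51.7, -0.840, -0.980 and 36.9 on the SSC arrays and 13.6, -10.2, -15.5 and -3.18 on the BCSP arrays, a difference of 25.5 points (95% interval -10.5 to 61.5). With the experiment as a block, the 95% intervals of Rb1 and Bub1b left out 0, at -99.97 to -14.6 and 0.835 to 50.2 points. That of Cdt1 included it, at -4.23 to 47.1 points. None of the blocked differences passed adjustment. By these probe sets Cdt1 and Bub1b were higher in the SSC array of every experiment and Rb1 was lower, but the populations overlapped. The highest probe sets of the genes did not repeat this. Rb1 by 1417850_at was higher in SSCs in 3 experiments, and Cdt1 by 1424143_a_at and Bub1b by 1447363_s_at in 2 each. Ccnd3 by 1444323_at, also lower in the SSC array of every experiment, differed by -22.1 points (95% interval -52.2 to 8.07). Tpx2 by 1447519_x_at differed by -17.1 points (95% interval -37.97 to 3.79). The same sign in every experiment was not particular to probe sets of small p. By their highest probe sets Ccne2 and Mcm6 were higher in SSCs in every experiment, and Mki67 and Cdk4 were lower. The exact two-sided permutation p over the 70 assignments of arrays was 0.0571 for Cdt1, 0.143 for Bub1b, 0.171 for Ccnd3 and for Tpx2, and 0.2 for Rb1. Exchanging arrays within experiments, the exact p was 0.125 for Rb1, Cdt1, Ccnd3 and Bub1b, the smallest that 16 exchanges can give, and 0.375 for Tpx2.

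The sign of the SSC minus BCSP difference changed with the experiment for replication genes. In experiment 1, 31 of 35 replication probe sets were higher in SSCs, with a median difference of 10.1 points. In experiments 2, 3 and 4 the count was 14, 11 and 15 of 35, with medians of -4.60, -1.27 and -1.92 points. G2/M probe sets were higher in SSCs in 20 of 30 cases in experiment 1 and in 7, 7 and 10 in the others. Over all probe sets the share was 52.4% in experiment 1 and 46.5 to 46.6% in the others. Single genes of both classes had a low BCSP score in experiment 1. Examples were Gmnn, the inhibitor of Cdt1, at -31.1, Cdc6, another licensing factor, at -36.0, and Aurkb, the kinase of the chromosomal passenger complex, at -20.3. Tyms went the other way in experiment 1, at 63.9 on the BCSP array and -19.1 on the SSC array. This BCSP array also had the highest 95th percentile of the silent reference, a list of genes of retina, liver and other unrelated tissues, at -3.55, against -24.2 to -11.0 on the others. The part of the array in the sign was not tested.

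The experiments themselves were compared in a fit with the population as a term. After adjustment 1 of 113 member probe sets passed, against 0.995% of all probe sets, and at an unadjusted limma p under 0.05 the count was 17 of 113, against 24.9%. By class the unadjusted count was 8 of 40 G1/S, 3 of 35 replication, 1 of 30 G2/M and 5 of 8 Cdk inhibitor probe sets, the last from 4 genes. The call was Rb1 by 1417850_at (limma adjusted p = 0.0409), whose experiment means were 68.3, 60.1, 84.6 and 93.7 in experiments 1 to 4. It was lost without any single array, at an adjusted limma p of 0.0618 to 0.258, and without the trend in eBayes, at 0.152. Its second probe set, 1444400_at, did not follow this order.

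Next came Cdkn1a by 1424638_at (0.0567), E2f1 by 1447840_x_at (0.067), Cdkn1c (0.0696) and Ccne2 (0.0837), each an adjusted limma p. Cdkn1a by this probe set scored 82.2, 85.5, 60.8 and 96.95 on the SSC arrays and 84.1, 78.3, 62.6 and 88.6 on the BCSP arrays. E2f1 by 1447840_x_at scored 45.5, -3.80, -70.2 and -4.39 on the SSC arrays and 60.2, 25.5, -36.01 and -3.55 on the BCSP arrays. In experiment 3 both probe sets had their lowest value in each population, as did those of Cdkn1c and Cdkn2c, while Ccne2 had its highest there. Of the other E2f1 probe sets 1417878_at shared this pattern in part. Its lowest SSC value, -39.99, was in experiment 3, but its lowest BCSP value, -61.9, was in experiment 4, against -51.6 in experiment 3. The probe set 1431875_a_at did not share it, being below 0 on all 8 arrays with its lowest values in experiment 1. Experiment 3 also had the largest gap between 3′ and 5′ actin probe sets. This actin gap was 59.6 points on the SSC and 64.9 on the BCSP array, against 23.1 to 44.2 on the others. The same gap for Gapdh probe sets did not set experiment 3 apart. For SSC and BCSP arrays in turn, the Gapdh gap was 54.7 and 49.1 points in experiment 3 but 53.9 and 71.9 in experiment 4. Experiments 1 and 2 had Gapdh gaps from 21.3 to 44.2 points. Hybridization controls had a median of 62.5 and 70.9 in experiment 1 and 32.4 and 41.8 in experiment 3, against -24.2 to 3.77 in experiments 2 and 4. The part of RNA quality and hybridization in these differences was not tested.

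**Figure D4:**
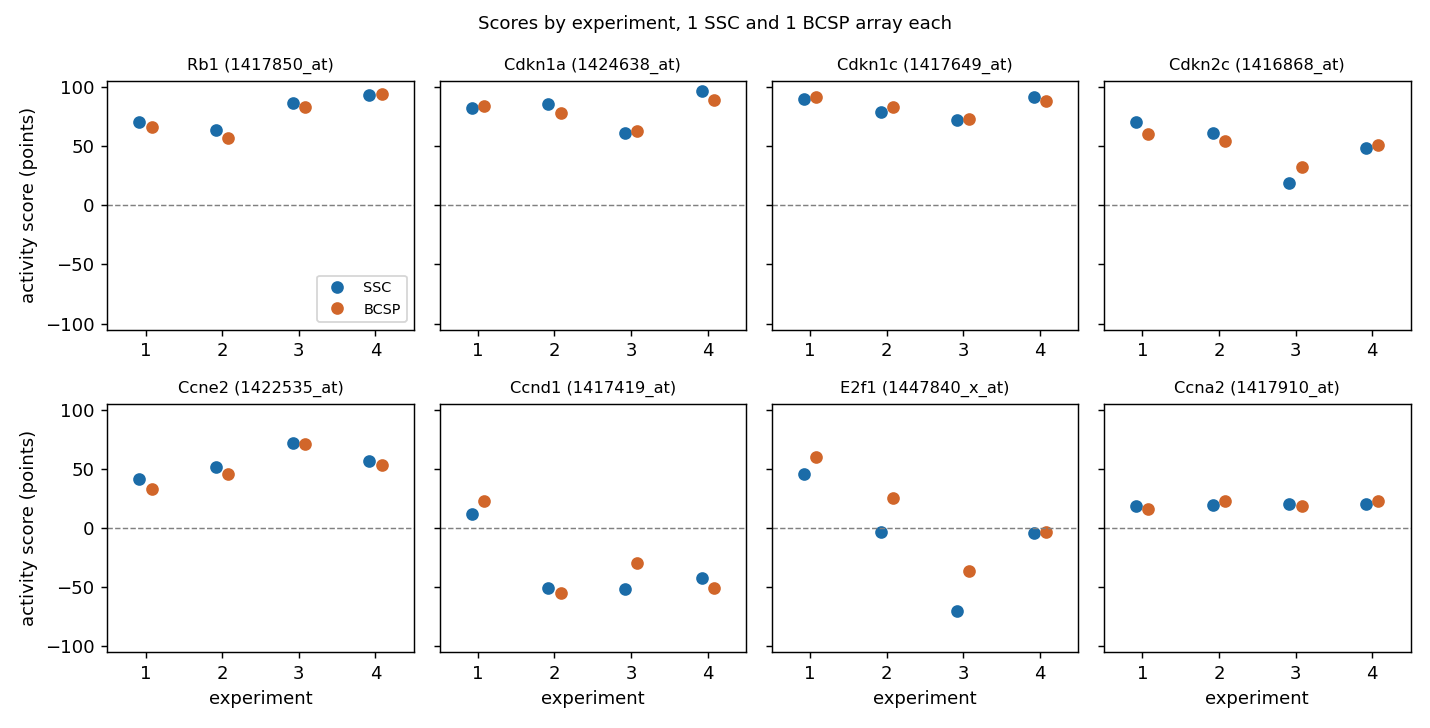
Activity score in points by experiment, with 1 SSC and 1 BCSP dot per experiment, for Rb1, Cdkn1a, Cdkn1c, Cdkn2c, Ccne2, Ccnd1, E2f1 and Ccna2 (probe set in brackets). Cdkn1a, Cdkn1c, Cdkn2c and E2f1 are lowest in experiment 3 in both populations, Ccnd1 is above 0 in experiment 1 only, and Ccna2 stays between 15.98 and 22.83.

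Probe sets of the same gene did not always give the same reading. A gene was said to disagree where 1 probe set was above 0 on all 8 arrays and another on 4 or fewer. Of 34 member genes with several probe sets, 12 disagreed (35.3%), against 25.4% of 9010 genes in the whole table. They were Bub1, Bub1b, Ccna2, Cdc20, Cdk6, Mcm4, Mcm6, Rb1, Rbl1, Rrm2, Top2a and Tpx2. Thus 6 G2/M, 3 replication and 3 G1/S genes were affected and no Cdk inhibitor. Among Cdk inhibitors only Cdkn1a and Cdkn1b had several probe sets, and no Cdkn1b probe set was above 0 on any array. Only Cdkn1a could therefore have met the rule, so the classes are not compared by this count.

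The widest gap was in Cdk6, where 2 probe sets averaged 84.1 and 82.8 and the other, 1460291_at, averaged -43.1. Rbl1, encoding p107, had a pair of active probe sets at 39.3 and 35.6, while 1454293_at ran from -67.4 to 83.6 and 1432604_at from -96.6 to -2.91. Rb1 by 1444400_at ran from -81.5 to 88.2, against 56.7 to 93.7 for 1417850_at. Tpx2 had 4 probe sets, with means of 58.4, 57.0, 12.8 and -10.6.

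Disagreement was smaller in other genes but crossed 0 all the same. Ccna2 averaged 19.8 by 1417910_at and -2.27 by 1417911_at, which was above 0 on 4 arrays. Cdc20 averaged 29.6, 9.33 and -5.60, and Bub1b 17.0, 8.92 and -16.8. Bub1 averaged 14.1 and -22.1, and Top2a 18.3, -17.2 and -35.3. In the replication class Mcm6 averaged 53.6, 20.8 and -4.55, Mcm4 25.97 and -9.36, and Rrm2 19.6, -1.30 and -35.8. The active readings of Mcm4, Rrm2 and Cdc20 rested on probe sets of the _x_at kind alone, whose probes can cross-hybridize with other transcripts.

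**Figure D5:**
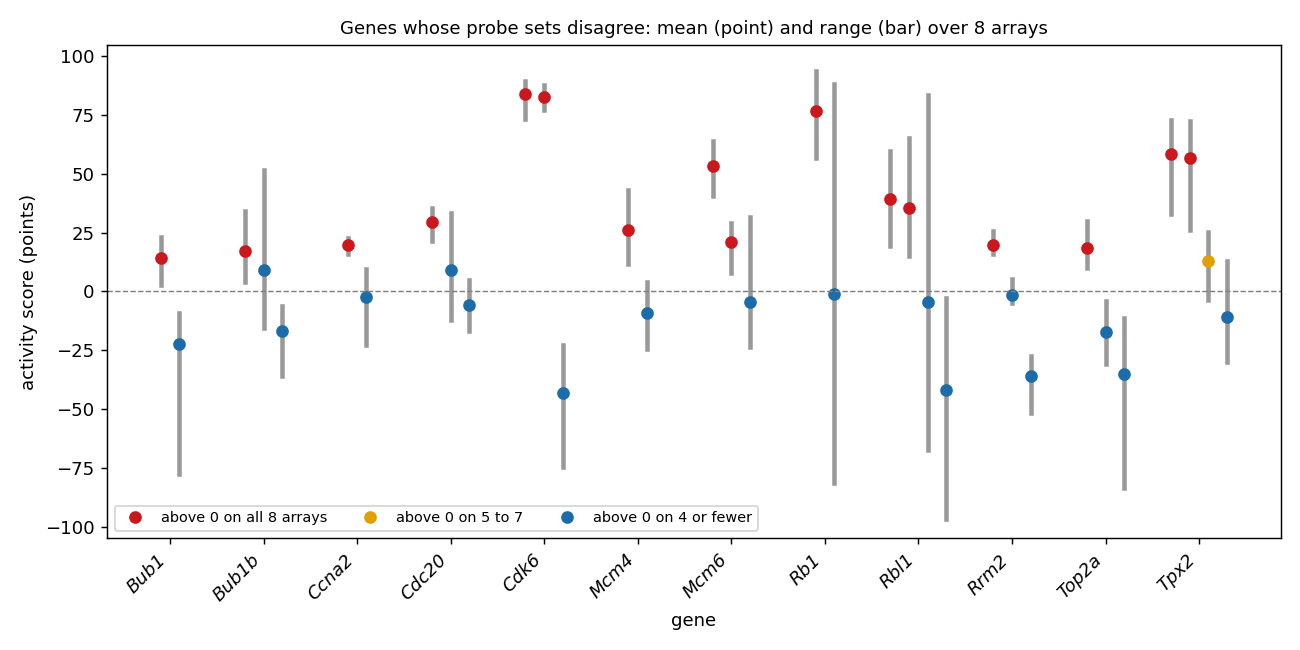
Mean activity score (dot) and range over 8 arrays (bar) of every probe set of the 12 genes whose probe sets disagree, in points, coloured by the number of arrays above 0. Cdk6 has probe sets at 84.1 and -43.1, and the 3 Rrm2 probe sets average 19.6, -1.30 and -35.8.

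Among members, 6 of 15 _x_at probe sets were active on all 8 arrays, against 16 of 77 plain ones (20.8%). In the whole table the shares were 28.4% of _x_at and 13.4% of plain probe sets. Without the _x_at, _s_at and _a_at kinds 16 of 77 member probe sets remained active on all 8 arrays, and in the replication class 1, of Mcm6. Replication genes therefore had a single plain probe set active throughout, whereas G2/M genes had 6.

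Genes of the same processes outside the members were read in the same way. Other G1/S regulators were active on all 8 arrays in 16 of 48 probe sets (33.3%), other replication genes in 13 of 64 (20.3%) and other G2/M genes in 16 of 118 (13.6%), against the 16.1% of all probe sets. Of the p53 targets and arrest genes 10 of 32 (31.2%) were active throughout. In these 4 lists 0 probe sets passed adjusted limma p under 0.05 in either comparison, and 0, 1, 2 and 0 had an unadjusted p under 0.05 between populations.

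The sort was checked by markers of other cells. All 8 skeletal progenitor genes measured were active on all 8 arrays, with array medians of 89.6 to 95.3. By contrast 0 of 7 macrophage, 0 of 5 neutrophil, 0 of 6 endothelial, 0 of 5 lymphocyte and 0 of 5 muscle genes were active on all 8 arrays, and of 6 erythroid genes only Tfrc, which dividing cells of other types also use, was. The globin gene Hba-a1 was above 0 on 5 arrays, with 90.5, -6.62, 14.6 and 59.4 on the SSC arrays and -34.6, 4.68, -7.34 and 52.04 on the BCSP arrays, and the part of red cell RNA in the members' scores was not tested. Ighm, of the lymphocyte list, was above 0 on 1 array, the BCSP array of experiment 1, at 59.6. None of these marker probe sets passed adjusted limma p under 0.05 between SSCs and BCSPs. The share of all probe sets above 0 was 29.0 to 31.0% per array.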

How the data were processed

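The deposited value is an activity score. The authors made it on Gene Expression Commons from Affymetrix arrays of amplified RNA, by setting every array against public mouse arrays with a StepMiner threshold per probe set. The step from probes to probe sets is not stated in any source used here. Of 45101 probe sets 64 controls were left out. By the platform annotation 34945 of the rest had 1 symbol, 932 had several, which left out a probe set shared by Tyms and its pseudogene, and 9160 were unnamed.

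Scores were used as deposited. limma 3.58.1 (R 4.3.3) fitted the difference between SSCs and BCSPs by lmFit and eBayes, with a trend and without a block, and experiments by a moderated F test with the population as a term, both over 45037 probe sets with Benjamini-Hochberg adjustment at 0.05. The code was tested on simulated scores. The number of arrays limits the precision. The labels place 1 array of each population in each experiment, but number the BCSP array of experiment 2 as 3 in the title and 2 in the description, and it was taken as 2. Deviations of same-numbered arrays from their population means correlated at 0.394, 0.164, 0.605 and 0.173 across probe sets. Those of differently numbered arrays correlated at -0.469 to 0.140, so the numbers were taken to pair the arrays. The pairing was least distinct in experiment 2, whose SSC array correlated at 0.140 with the BCSP array of experiment 1.

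The members and lists were chosen with earlier results of these data known. Genes named are every Cdk inhibitor, the 3 highest and 3 lowest of each other class, the 5 smallest p of each comparison and every gene whose probe sets disagree; other members named with values were chosen after their values were seen. Promoter windows came from RefSeq (GRCm38.p6), for 39 of 50 members. Alternatives were the experiment as a block, quantile normalization, centring, filters on low scores, other probe set rules, eBayes without trend, array weights, the methods' t-test and leaving out arrays; the block combined with other settings and leaving out both arrays of an experiment were added after seeing the data.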

Additional observations from a re-analysis of the deposited data

Results flagged for a closer look

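In 5 of 98 groups of 4 arrays, taking the highest probe set of each gene, 1 array stood far from the other 3; chance alone gives about 1 in 20 such groups. Ccnd1 scored 12.07 on the SSC array of experiment 1 and -51.71 to -41.93 on the other SSC arrays. Ccne1, an E-type cyclin, scored 8.92 on the BCSP array of experiment 3 and -17.95 to -16.78 on the others. Cdk6 (1455287_at) scored 73.38 on the BCSP array of experiment 4 against 88.24 to 89.61. Rbl2, encoding p130, scored -22.89 on the BCSP array of experiment 1 against 2.02 to 3.47. Ube2c scored -29.23 on the SSC array of experiment 3 against -0.34 to 2.43.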

How the results depend on the processing

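No difference between SSCs and BCSPs passed adjustment under any of 24 alternatives. The 5 differences of smallest p, picked from these data, kept their sign in the alternatives that kept their probe set. The block, eBayes without trend, the t-test and the filters leave an estimate unchanged, so its sign could not change there. By the highest probe set of the gene the differences were 3.365 points for Rb1, -2.96 for Cdt1 and 4.04 for Ccnd3, each of opposite sign. For Bub1b it was 4.225, of the same sign. With the experiment as replicate block 0 of 113 members passed, and 2268 of all probe sets had an unadjusted limma p under 0.05 against 1081 without the block. Between experiments the count of members, 1 in the reported fit, was 3 after quantile normalization, 5 and 4 among probe sets above 0 on at least 2 and 4 arrays, 0 with probe sets averaged per gene, 0 without trend, and 0 to 0 leaving out each array in turn. Probe sets active on all 8 arrays, 26 in all, were 16 without _x_at, _s_at and _a_at kinds, which left 1 replication and 6 G2/M probe sets and 6 disagreeing genes. By the highest probe set per gene 5 G1/S genes were active, and with the 95th percentile of the silent list as the level 7 replication probe sets were. Over all probe sets of the genes the class medians in SSCs and BCSPs were -24.3 and -22.2 for G1/S, -19.2 and -23.7 for replication, and 0.439 and 2.86 for G2/M. Those of the Cdk inhibitors were 31.2 and 30.8 either way, since their added probe sets, of Cdkn1a and Cdkn1b, lay on opposite sides of the median. Leaving out arrays, the G1/S median ran from -0.630 to 12.4 in SSCs and from -6.06 to 2.00 in BCSPs, the replication median from -8.07 to -0.990 in BCSPs and the G2/M median from 13.5 to 17.2 in SSCs. The largest of these moves came without the SSC array of experiment 3 for G1/S, without the BCSP array of experiment 2 for replication and without the SSC array of experiment 1 for G2/M. The causes were not tested. With 4 arrays per population, the median interval half-width was 27.6 points, or 24.1 with the block. Smaller differences would thus mostly not have stood apart from 0 even before adjustment. Adjustment over all probe sets asks for more, so these widths are not a limit of detection. Scores near 0 depend on where each threshold lies.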

Other observations

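Among p53 targets and arrest genes, 6 of 14 genes measured were active on all 8 arrays by their highest probe set. By the same rule the share of all genes was 25.0%. The genes given with scores here were chosen after their values were seen. Gadd45b and Gadd45g, stress-induced growth arrest genes, scored 93.3 ± 2.12 and 94.0 ± 2.67 in SSCs and 94.0 ± 2.49 and 94.97 ± 1.58 in BCSPs (SD, n = 4). Btg1 and Btg2, antiproliferative genes, scored 86.4 ± 8.53 and 80.6 ± 8.89 in SSCs and 88.4 ± 4.52 and 85.5 ± 8.92 in BCSPs. Ccng1, a p53 target, scored 73.6 ± 10.5 in SSCs and 68.6 ± 9.78 in BCSPs. Gadd45a, of the same family as Gadd45b, was above 0 on none of the 8 arrays, with -28.3 ± 12.97 in SSCs and -34.3 ± 19.7 in BCSPs. Of the other genes, Sesn1 was above 0 on all 8 arrays, Gas1 on 5, Ccng2 on 4 and Mdm2 on 3. Plk3 was above 0 on 2, Plk2 on 1, and Sesn2 and Gas2 on none. The populations were not separated by limma for any of them (adjusted p = 1).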
